A study of Mus musculus with 24 samples.

Results

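The genes described here encode the non-muscle actins and a set of small proteins that bind actin: Actb, Actg1, Pfn1, Tmsb10, Cfl1, Capg, Tpm4, Tagln2, Cnn2 and Cnn3. They are 10 of the 55359 genes in the deposited count table and were taken by name, through their Ensembl identifiers. The genes were chosen by name, in a list drawn up with results of these wells in view. Its rule states no measured value or threshold, and the changes at 30 mM and the differences between doses were among the results known, so the counts of changed genes among the 10 are descriptions of these genes and are no independent evidence that the family moved. Counts came from 24 wells of cultured mouse oligodendrocytes, the cells that make myelin, in 4 groups of 6 wells. Cells were sorted with an antibody to O4, a surface marker of immature oligodendrocytes, from the cortex of C57BL6/J pups aged 5 to 7 days, and all wells were differentiated for 3 days with triiodothyronine, a thyroid hormone. In experiment 1, 6 wells then received 30 mM ethanol for 3 days and 6 control wells received 0 mM. In experiment 2, 6 wells received 10 mM ethanol for 3 days and 6 control wells received 0 mM. The labels give the experiments as separate batches, and control plates stood in an incubator of their own. Ethanol therefore cannot be told apart from incubator, nor dose from experiment. The labels number the wells as biological replicates without saying whether they came from separate pups or sorts, so the p-values measure the spread between wells.

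Actin monomers assemble into filaments that push out and shape the processes of an oligodendrocyte, and the disassembly of these filaments is known to accompany the wrapping of myelin around axons. Profilin, encoded by Pfn1, hands monomers to growing filament ends, and thymosin beta 10, encoded by Tmsb10, holds monomers in reserve. Cofilin, encoded by Cfl1, severs old filaments, and CapG, encoded by Capg, caps their fast-growing ends. Tropomyosin (Tpm4), transgelin (Tagln2) and the calponins (Cnn2, Cnn3) lie along filaments and stabilise or bundle them. Many genes of this kind are known targets of serum response factor (SRF), which binds the CArG box and works with cofactors that sense free actin monomers.

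Promoter windows are shown because these genes are described together and the start-site letters let a reader compare a calponin that fell at 30 mM with one that did not pass the test. RefSeq promoters on build GRCm38.p6, each running from 250 bases before the start of a gene to 50 bases after it, were found for 9 of the 10 genes, in 11 windows because Tmsb10 has several starts. Actb had no entry. The CArG box was searched by name on both strands, together with GGAATG, the core site of TEAD factors, and TGANTCA, the site of AP-1, also on both strands. No matched stretch overlapped another. Capitals below mark the matched letters.
Cnn2, chr10:79988350-79988649, plus strand: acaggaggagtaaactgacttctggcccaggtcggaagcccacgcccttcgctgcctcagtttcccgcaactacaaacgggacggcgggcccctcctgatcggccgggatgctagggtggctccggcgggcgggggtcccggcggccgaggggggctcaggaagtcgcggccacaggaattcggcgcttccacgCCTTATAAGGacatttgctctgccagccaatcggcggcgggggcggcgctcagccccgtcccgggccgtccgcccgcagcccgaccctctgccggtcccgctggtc
Cnn3, chr3:121426291-121426590, plus strand: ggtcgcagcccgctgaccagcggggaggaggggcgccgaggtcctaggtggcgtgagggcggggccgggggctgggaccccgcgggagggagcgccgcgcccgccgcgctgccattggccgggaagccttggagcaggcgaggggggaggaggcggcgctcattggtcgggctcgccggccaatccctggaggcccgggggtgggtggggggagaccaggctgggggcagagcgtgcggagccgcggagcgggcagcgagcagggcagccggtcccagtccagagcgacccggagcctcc
Actg1, chr11:120348446-120348745, minus strand: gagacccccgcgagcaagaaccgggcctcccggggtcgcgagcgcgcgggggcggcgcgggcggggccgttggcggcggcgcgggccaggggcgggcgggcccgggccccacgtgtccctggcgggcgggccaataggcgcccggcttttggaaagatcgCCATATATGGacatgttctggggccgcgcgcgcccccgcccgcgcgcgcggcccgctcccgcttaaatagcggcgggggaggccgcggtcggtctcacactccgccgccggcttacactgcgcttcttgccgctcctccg
Tagln2, chr1:172499996-172500295, plus strand: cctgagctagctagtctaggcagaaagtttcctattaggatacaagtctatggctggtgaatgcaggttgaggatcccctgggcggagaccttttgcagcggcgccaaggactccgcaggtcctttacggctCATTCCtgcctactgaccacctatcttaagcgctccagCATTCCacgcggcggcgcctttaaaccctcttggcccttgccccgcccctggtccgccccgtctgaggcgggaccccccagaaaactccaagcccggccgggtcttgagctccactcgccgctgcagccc
Capg, chr6:72549397-72549696, plus strand: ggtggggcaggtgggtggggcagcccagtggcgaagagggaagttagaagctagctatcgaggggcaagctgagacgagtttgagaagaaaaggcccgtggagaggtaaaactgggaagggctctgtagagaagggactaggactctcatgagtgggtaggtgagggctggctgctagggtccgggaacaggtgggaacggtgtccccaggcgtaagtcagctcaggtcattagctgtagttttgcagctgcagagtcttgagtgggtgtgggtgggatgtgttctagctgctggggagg
The Cnn2 window held the CArG box CCTTATAAGG with its first base at position -56 from the start site, and the Actg1 window held CCATATATGG at -90. These were 2 of the 11 windows, against 1.63% of all 32851 windows in the table. GGAATG, read on the opposite strand as CATTCC, stood at -118 and -80 in the Tagln2 window, and GGAATG stood at -52 in that of Pfn1, again 2 of the 11 windows, against 14.7% of all windows. TGANTCA was in 0 of the 11 windows and in 7.81% of all windows. The windows of Cnn3, Capg, Cfl1 and Tpm4 and all those of Tmsb10 held none of the 3. Of the genes with a CArG box, Cnn2 fell at 30 mM and Actg1 did not pass. Tagln2 and Pfn1, with GGAATG, fell. Among the genes with none of the 3, Capg, Cfl1, Tpm4 and Tmsb10 fell, and Cnn3 did not pass. A match of letters is a description of the window and not evidence that a factor binds there.

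Total counts per well ran from 1184609 to 1817028, and levels are given as CPM, the counts divided by the library size after scaling by TMM factors. Reads of 3′ tag sequencing come from near the end of each transcript, so counts do not scale with transcript length. A level of 3 counts, taken as the floor, was between 1.69 and 2.51 CPM, which covers counting error only. At 30 mM, 400 genes rose and 880 fell among 13235 tested, and with upper quartile scaling the split was 551 and 697. The summed level of 11 oligodendrocyte markers was between 6789 and 9107 CPM in the controls and at 10 mM. Replicate 1 at 30 mM stood apart at 15468 CPM, while the other wells of its group ran from 9004 to 9460 CPM. Marker genes of astrocytes, microglia, fibroblasts and smooth muscle were also counted in every group, and their values are given beside the results they move with. In RNA from whole wells, fewer cells of a type and less RNA per cell cannot be told apart.

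At 30 mM ethanol 8 of the 10 genes fell against the controls of experiment 1, namely Capg, Cnn2, Tagln2, Tpm4, Tmsb10, Pfn1, Cfl1 and Actb, and 0 rose, at an adjusted p under 0.05 in edgeR's quasi-likelihood test. Of all 13235 genes tested, 9.67% passed, with 6.65% lower and 3.02% higher. The falls spanned from a log2 fold change of -1.33 for Capg to -0.25 for Actb and Cfl1. Cnn3 and Actg1 did not pass. In 7 of the 10 genes every ethanol well lay below every control well, against 3.35% of all genes tested, and 0 of the 10 had all ethanol wells above, against 0.808%. Cfl1 passed with overlapping wells. The median log2 fold change of the 10 was -0.44, beside 0.02 for all genes tested. All 8 genes also passed when replicate 1 at 30 mM was left out. At 10 mM ethanol 0 of the 9 genes tested passed in either direction, against 0.657% of all 13538 genes tested, 0.266% lower and 0.391% higher. No gene of the 9 had wells apart, against 0.384% of all genes apart and lower and 0.458% apart and higher. The count was also 0 with DESeq2 and with limma voom, and 2 genes, Cnn2 and Capg, had an unadjusted p under 0.05 in edgeR. The share of all genes under that unadjusted cut is not given here, so the 2 cannot be set against it.

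**Figure D1:**
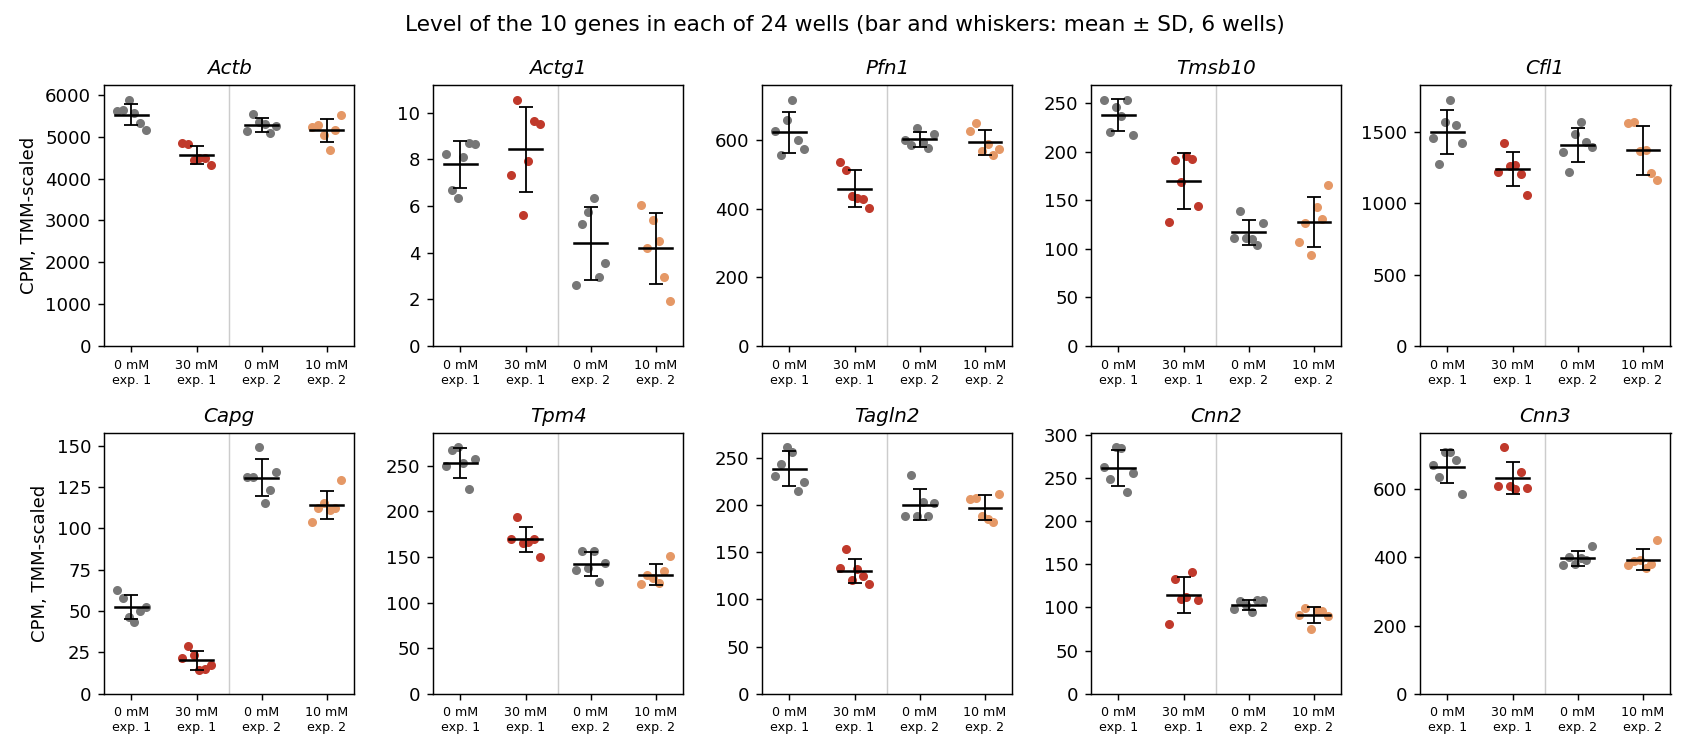
Level of each of the 10 genes in CPM (vertical axis, from 0) in every well of the 4 groups, with the mean and SD of 6 wells as bar and whiskers. For Cnn2 the wells at 30 mM (highest 141 CPM) lie under all control wells of experiment 1 (lowest 233 CPM), while Cnn3 overlaps within each experiment and separates the experiments.

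Actb (ENSMUSG00000029580) encodes beta-actin, the main cytoplasmic actin of most cells, and is often used as a reference gene. Its lowest, median and highest control wells in experiment 1 held 5153, 5589 and 5885 CPM. At 30 mM the corresponding wells held 4324, 4496 and 4847 CPM, so the ethanol wells all lay below the controls, by a narrow margin. Actb fell by 0.25 on the log2 scale (edgeR adjusted p = 0.00107, standard error, SE, 0.053), from 5532 ± 258 to 4572 ± 216 CPM (SD, n = 6 each). Experiment 2 gave 5084, 5285 and 5533 CPM in the controls and 4694, 5192 and 5527 CPM at 10 mM, with overlapping wells. There the log2 fold change was -0.04 (edgeR adjusted p = 0.862, SE 0.049). The change at 30 mM was more negative by 0.22 than that at 10 mM, but this difference did not pass (edgeR adjusted p = 0.0844). It passed with DESeq2 (adjusted p = 0.00356), limma voom (adjusted p = 0.00287) and total-count scaling in edgeR (adjusted p = 0.0496). In edgeR it also passed without replicate 1 (adjusted p = 0.0375) or 2 (0.0359) at 30 mM, control replicate 6 of experiment 1 (0.0302) or replicate 4 at 10 mM (0.0442).

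Actg1 (ENSMUSG00000062825), whose window holds a CArG box shown above, encodes gamma-actin, the other cytoplasmic actin. It had between 3 and 16 counts in any well, while Actb had between 5464 and 9613. Mouse Actg1 has near-identical copies elsewhere in the genome, and how reads matching several places were counted is not given in the sources used here, so its level is uncertain. Its wells ran from 6.34 to 8.69 CPM in the controls and from 5.63 to 10.6 CPM at 30 mM, with a log2 fold change of 0.15 (edgeR adjusted p = 0.786, SE 0.263). In experiment 2 it stood at 2.61 to 6.34 CPM in the controls and at 1.95 to 6.06 CPM at 10 mM, near the floor. It was too low there to be tested.

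Of the genes for monomer-binding proteins, Pfn1 (ENSMUSG00000018293) had 559, 614 and 718 CPM in the lowest, median and highest control wells of experiment 1. At 30 mM these were 404, 435 and 537 CPM, with no overlap. Pfn1 fell by 0.41 on the log2 scale (edgeR adjusted p = 1.45e-05, SE 0.065). The controls of experiment 2 held 579, 597 and 636 CPM and the 10 mM wells 556, 582 and 649 CPM. These groups overlapped, and the log2 fold change was -0.03 (edgeR adjusted p = 0.918, SE 0.052).

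Tmsb10 (ENSMUSG00000079523) had 217, 242 and 254 CPM in the lowest, median and highest control wells of experiment 1 and 128, 180 and 195 CPM at 30 mM. The 30 mM wells were spread widely, with replicate 1 the lowest, yet none reached a control well. Tmsb10 fell by 0.46 on the log2 scale (edgeR adjusted p = 0.000107, SE 0.082), and by 0.38 (SE 0.074) without replicate 1. In experiment 2 its controls held 104, 111 and 139 CPM and its 10 mM wells 94.1, 128 and 166 CPM. It was the only one of the 9 genes tested with a positive estimate at 10 mM, 0.13 on the log2 scale (SE 0.085), which did not pass (edgeR adjusted p = 0.628).

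The genes acting on filament ends and breaks differed widely in size of change. Cfl1 (ENSMUSG00000056201) had 1276, 1504 and 1723 CPM in the lowest, median and highest control wells of experiment 1 and 1053, 1240 and 1421 CPM at 30 mM. Its groups overlapped, since the highest 30 mM well, replicate 2, exceeded the lowest controls. Cfl1 fell by 0.25 on the log2 scale (edgeR adjusted p = 0.00619, SE 0.063). At 10 mM its wells ran from 1158 to 1565 CPM, around those of its controls at 1220 to 1565 CPM, with a log2 fold change of -0.04 (SE 0.058).

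Capg (ENSMUSG00000056737) showed the largest fold change of the 10 at 30 mM. The control wells of experiment 1 held 43.3, 51.4 and 63.0 CPM at the lowest, median and highest, and the 30 mM wells 14.4, 19.4 and 29.0 CPM. The groups were well apart, at 67 to 92 counts per control well and 19 to 44 counts per ethanol well. Capg fell by 1.33 on the log2 scale (edgeR adjusted p = 6.74e-09, SE 0.146), a 2.51-fold lower level. In experiment 2 the controls held 116, 131 and 149 CPM and the 10 mM wells 104, 112 and 129 CPM. These overlapped, with a log2 fold change of -0.20 (SE 0.074) that did not pass (unadjusted p = 0.00844, edgeR adjusted p = 0.267).

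Among the genes for proteins along the filament, Tpm4 (ENSMUSG00000031799), a short non-muscle tropomyosin, had 224, 255 and 270 CPM in the lowest, median and highest control wells of experiment 1. At 30 mM the values were 150, 168 and 193 CPM, all under the controls. Tpm4 fell by 0.55 on the log2 scale (edgeR adjusted p = 1.45e-07, SE 0.069). In experiment 2 the controls held 122, 141 and 157 CPM and the 10 mM wells 120, 129 and 151 CPM, which overlapped. The log2 fold change was -0.12 (edgeR adjusted p = 0.594, SE 0.073).

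Tagln2 (ENSMUSG00000026547), the non-muscle transgelin, had 215, 237 and 261 CPM in the lowest, median and highest control wells of experiment 1. At 30 mM it had 116, 128 and 153 CPM, so the groups were far apart. Tagln2 fell by 0.85 on the log2 scale (edgeR adjusted p = 7.97e-12, SE 0.073), to a level 1.80-fold lower. In experiment 2 the control wells held 188, 195 and 232 CPM and the 10 mM wells 182, 198 and 212 CPM. These groups overlapped, and the log2 fold change was -0.03 (edgeR adjusted p = 0.935, SE 0.065).

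The calponin genes Cnn2 and Cnn3 encode close relatives that bind actin in non-muscle cells. Cnn2 (ENSMUSG00000004665), whose window holds the CArG box shown above, had 233, 259 and 285 CPM in the lowest, median and highest control wells of experiment 1. At 30 mM it had 80.7, 111 and 141 CPM, and replicate 1 was the lowest well. Cnn2 fell by 1.18 on the log2 scale (edgeR adjusted p = 9.56e-14, SE 0.087), a 2.26-fold lower level, and by 1.08 (SE 0.077) without replicate 1. In experiment 2 its controls held 95.0, 105 and 108 CPM and its 10 mM wells 74.5, 93.5 and 99.7 CPM. The groups overlapped slightly, with a log2 fold change of -0.18 (SE 0.079) that did not pass (unadjusted p = 0.0236, edgeR adjusted p = 0.403).

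Cnn3 (ENSMUSG00000053931) had 586, 680 and 710 CPM in the lowest, median and highest control wells of experiment 1 and 602, 609 and 723 CPM at 30 mM. The groups overlapped over most of their range. The log2 fold change was -0.05 (edgeR adjusted p = 0.66, SE 0.059). In experiment 2 Cnn3 had 377, 396 and 435 CPM in the controls and 370, 385 and 453 CPM at 10 mM, a log2 fold change of -0.02 (edgeR adjusted p = 0.961, SE 0.056). Its estimate at 10 mM was positive, at 0.01, without the filter on low counts.

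**Figure D2:**
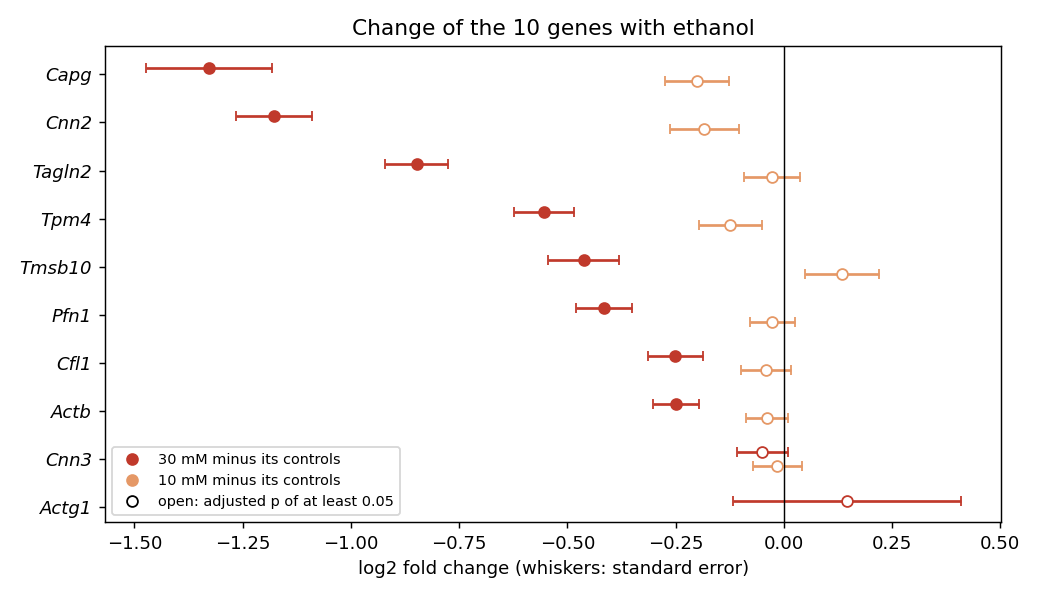
Log2 fold change of each gene (horizontal axis, whiskers give the standard error) at 30 mM and at 10 mM, each against the controls of its own experiment. Filled points passed an adjusted p of 0.05. The 8 filled points all belong to 30 mM and run from -1.33 for Capg to -0.25 for Actb.

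The change at 30 mM was set against that at 10 mM in 1 model over all wells, in which 3.28% of 14655 genes passed, and 2.40% had a more negative change at 30 mM and 0.880% a more positive one at an adjusted p under 0.05. Of the 10 genes, 6 had a more negative change at 30 mM and 0 a more positive one. The difference of log2 fold changes was -1.14 for Capg (edgeR adjusted p = 5.02e-07, SE 0.158) and -1.01 for Cnn2 (edgeR adjusted p = 1.5e-08, SE 0.123). It was -0.83 for Tagln2, -0.61 for Tmsb10, -0.44 for Tpm4 and -0.40 for Pfn1. Tagln2 had already been among the genes with the smallest p for this difference when the list was drawn up, so its value here is a description. Cfl1 (-0.22, edgeR adjusted p = 0.195) and Cnn3 (-0.05, edgeR adjusted p = 0.823) did not pass. Over all genes 481 passed, 129 more positive and 352 more negative. With upper quartile scaling these were 222 and 203, and 6 of the 10 genes still passed. Without replicate 1 or 2 at 30 mM, 759 and 723 genes passed. Since each dose was used in 1 experiment only, dose and experiment cannot be told apart in this difference.

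The experiments began from different levels. Between the control groups 43.6% of 13479 genes passed, with 22.3% lower and 21.3% higher in experiment 1, and of the 9 genes tested 5 were higher and 1 lower. Cnn2 was 2.52-fold higher in the controls of experiment 1 (log2 fold change 1.34, SE 0.069), Tmsb10 was 2.03-fold higher, Tpm4 1.78-fold, Cnn3 1.67-fold and Tagln2 1.19-fold (each past an edgeR adjusted p of 0.05). The first 4 had no overlapping wells, against 9.94% of all genes tested that were apart and higher. Capg went the other way and was 2.53-fold lower in experiment 1 (log2 fold change -1.34, edgeR adjusted p = 2.66e-23, SE 0.089), also with no overlap, against 8.67% of all genes apart and lower. Actb, Pfn1 and Cfl1 did not pass, with log2 differences from 0.04 to 0.08. Marker levels differed between the same control groups. The 10 smooth muscle genes summed to 837 to 1070 CPM in experiment 1 and 188 to 230 CPM in experiment 2, and 7 of 8 tested were higher in experiment 1 and 1 lower. Capg is known as a macrophage-capping protein, and 10 markers of microglia, the macrophages of the brain, summed to 193 to 337 CPM in experiment 1 and 2420 to 2930 CPM in experiment 2, and 9 of 9 tested were lower in experiment 1. Their part in the differences between the experiments was not tested.

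In order of level, these starting differences placed the groups differently from gene to gene. For Tagln2 and Pfn1 the controls of experiment 1, those of experiment 2 and the 10 mM wells followed each other, each overlapping the next, and the 30 mM wells lay below all of them. For Cnn2, Tpm4 and Tmsb10 the controls of experiment 1 stood alone at the top, and the 30 mM wells overlapped the wells of experiment 2. Cnn2 at 30 mM, with 114 ± 21.0 CPM, was thus close to the controls of experiment 2 with 103 ± 5.81 CPM (SD, n = 6 each). For Capg the order was the controls of experiment 2, the 10 mM wells, the controls of experiment 1 and the 30 mM wells, and only the first 2 groups overlapped. For Actb and Cfl1 each group overlapped its neighbours in the order. For Cnn3 both groups of experiment 1 lay above both groups of experiment 2, and the group means of Actg1 were likewise higher in experiment 1, highest at 30 mM, with the 30 mM wells overlapping those of experiment 2.

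Together the 10 genes took 0.917% ± 0.0208 of all counts in the controls of experiment 1 and 0.749% ± 0.0217 at 30 mM (SD, n = 6 each). The controls of experiment 2 gave 0.850% ± 0.0195 and the 10 mM wells 0.824% ± 0.0300. Without Actb, which made up the larger part, the shares were 0.376%, 0.293%, 0.315% and 0.305%. The highest well at 30 mM (0.772%) was below the lowest control well of its experiment (0.886%), while the wells of experiment 2 overlapped.

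Each of 8 genes was also set against a relative counted in the same well, which does not depend on how wells are scaled. These pairs were chosen after the values had been seen and no test was made. The ratio of Cnn2 to Cnn3 counts was 0.393 ± 0.0309 in the controls of experiment 1 and 0.180 ± 0.0270 at 30 mM (SD, n = 6 each). In experiment 2 it was 0.260 ± 0.0141 in the controls and 0.233 ± 0.0313 at 10 mM, with overlapping wells. Every 30 mM well, at 0.132 to 0.216, was below every control well, at 0.339 to 0.435.

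The ratio of Capg to Gsn, which encodes gelsolin, a severing and capping relative, was 0.277 ± 0.0396 in the controls and 0.103 ± 0.0363 at 30 mM (SD, n = 6 each). That of Tagln2 to Tagln3, the neuronal transgelin, was 5.26 ± 0.801 and 2.85 ± 0.642. For Tmsb10 over Tmsb4x, the more widely expressed thymosin beta, it was 0.0603 ± 0.00464 and 0.0427 ± 0.00624. All 3 ratios had no overlap between the 30 mM wells and their controls. Pfn1 over Pfn2 gave 2.22 ± 0.147 and 1.80 ± 0.177, and Tpm4 over Tpm3 gave 0.888 ± 0.0788 and 0.727 ± 0.0315. The Pfn1 ratio overlapped at 1 well of each group, whereas the Tpm4 ratio did not overlap. Wells also overlapped for Cfl1 over Cfl2, at 10.6 ± 0.781 and 9.67 ± 1.38, and for Actb over Actg1, at 726 ± 133 and 566 ± 136. In experiment 2 the ratios in controls and at 10 mM were 0.627 ± 0.0796 and 0.520 ± 0.0315 for Capg and 0.0296 ± 0.00396 and 0.0321 ± 0.00621 for Tmsb10. They were 2.98 ± 0.220 and 3.22 ± 0.275 for Pfn1, 0.475 ± 0.0379 and 0.446 ± 0.0253 for Tpm4, and 16.3 ± 1.45 and 17.2 ± 3.81 for Cfl1. For Tagln2 they ranged from 4.46 to 6.74 in the controls and from 4.23 to 5.95 at 10 mM. The wells of experiment 2 overlapped in all 8 ratios. The relatives Tmsb4x (log2 fold change 0.03), Tagln3 (0.07), Gsn (0.13), Pfn2 (-0.12) and Cfl2 (-0.11) did not pass at 30 mM (edgeR adjusted p from 0.227 to 0.786).

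**Figure D3:**
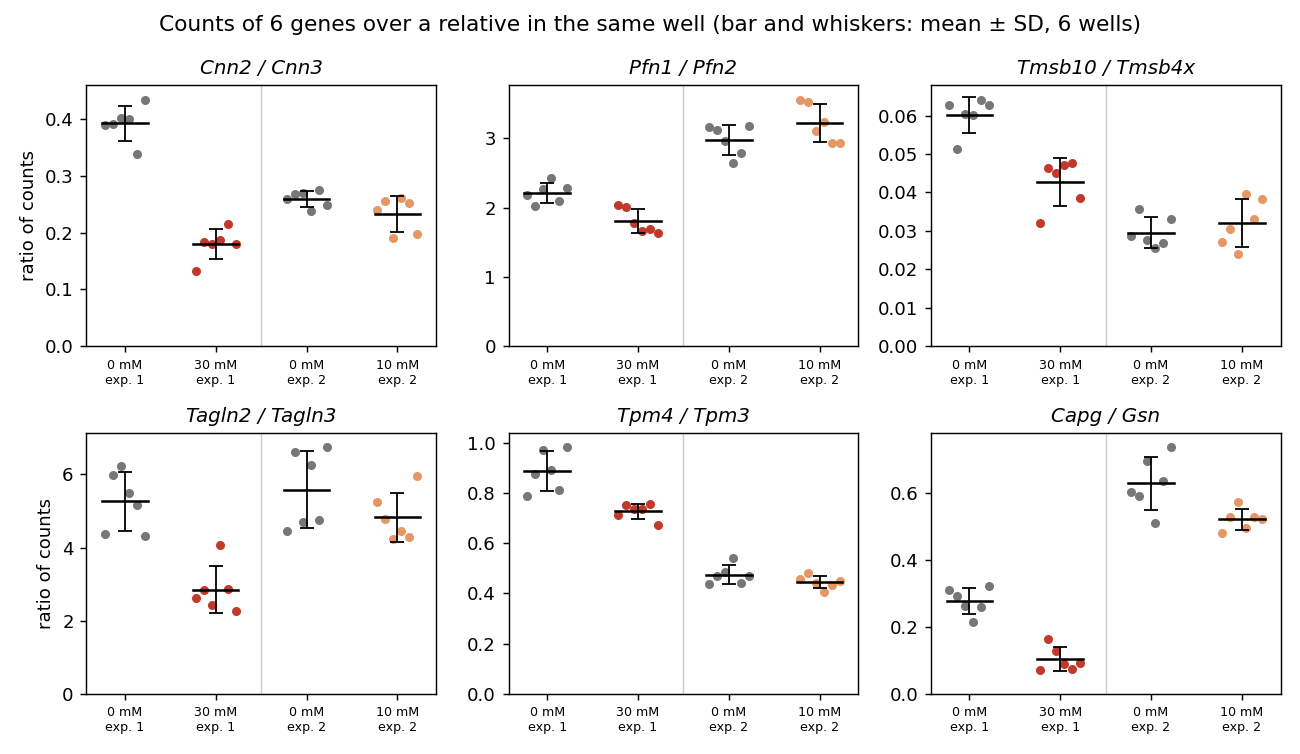
Ratio of the counts of 6 genes to those of a relative in the same well (vertical axes, from 0), with the mean and SD of 6 wells per group. The ratio of Cnn2 to Cnn3 lies between 0.132 and 0.216 at 30 mM and between 0.339 and 0.435 in its controls.

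Other genes of actin biology were read from lists by role, 110 genes in all without the 10 genes above and without smooth muscle genes, of which 100 were tested at 30 mM. Of these 27 fell and 3 rose, beside the 6.65% and 3.02% of all genes. In 14 of the 100 every ethanol well lay below every control well, against 3.35% of all genes tested. In 1 every ethanol well lay above, against 0.808%. Their median log2 fold change was -0.10, against 0.02 for all genes. The falls lay mostly in a few lists. Of the cross-linkers and membrane linkers 9 of 14 fell, of the focal adhesion genes 6 of 9, and of non-muscle myosin II 3 of 6. In fits that each left out a well these ranged from 7 to 9, 6 to 7 and 2 to 3. The 27 falls ranged from 21 to 28. The other tropomyosin genes fell in 3 of 3 cases, Tpm2 among them, which is counted with the smooth muscle genes.

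Flna, encoding filamin, which ties filaments into nets, went from 331 ± 20.7 to 220 ± 29.6 CPM (SD, n = 6 each), a log2 fold change of -0.56 (edgeR adjusted p = 2.01e-07, SE 0.072). Fscn1, which encodes the bundling protein fascin, changed by -0.53 and Actn1, alpha-actinin, by -0.50. Zyx, encoding zyxin of focal adhesions, went from 106 ± 8.89 to 66.0 ± 6.38 CPM (log2 fold change -0.65, edgeR adjusted p = 9.06e-07, SE 0.089), with Tln1, talin, at -0.50 and Pdlim7 at -0.40. The myosin light chain gene Myl12a changed by -0.47, the heavy chain gene Myh10 by -0.40 and the light chain gene Myl6 by -0.20, a call that was lost in 7 of 12 fits that each left out a well. The tropomyosin genes Tpm1 (-0.83), Tpm2 (-1.92) and Tpm3 (-0.27) fell as Tpm4 did. All of these passed an edgeR adjusted p of 0.05.

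Lists that nucleate, sever or cap filaments are given beside the 9.67% of all genes that passed at 30 mM. In the Arp2/3 complex, which starts branched filaments, 1 of 9 genes fell (Actr3, -0.29), and 0 of 10 of its activators passed. In the cofilin list 1 of 10 fell (Wdr1, -0.21), and both calls were lost without replicate 3 or 4 at 30 mM or control replicate 4 of experiment 1, that of Wdr1 also without replicate 6 at 30 mM. In the capping and gelsolin list Capzb fell (-0.25) and Add3, adducin, rose (0.26), among 11 tested. Of 10 formin and Ena/VASP genes 2 fell (Diaph3, -0.49, and Vasp, -0.39) and 2 rose (Daam1, 0.34, and Fmnl2, 0.26). Vasp is also counted among the focal adhesion genes above. Diaph3 lost its call without replicate 4 at 30 mM or control replicate 3 or 6, and Fmnl2 without replicate 2 at 30 mM or control replicate 3, which left 1 call in that direction. For monomer-binding genes other than Pfn1 and Tmsb10, 0 of 6 passed, as did 0 of 3 tropomodulins and 0 of 3 genes for SRF and its cofactors. A gene that did not pass is not thereby shown to be unchanged.

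**Figure D4:**
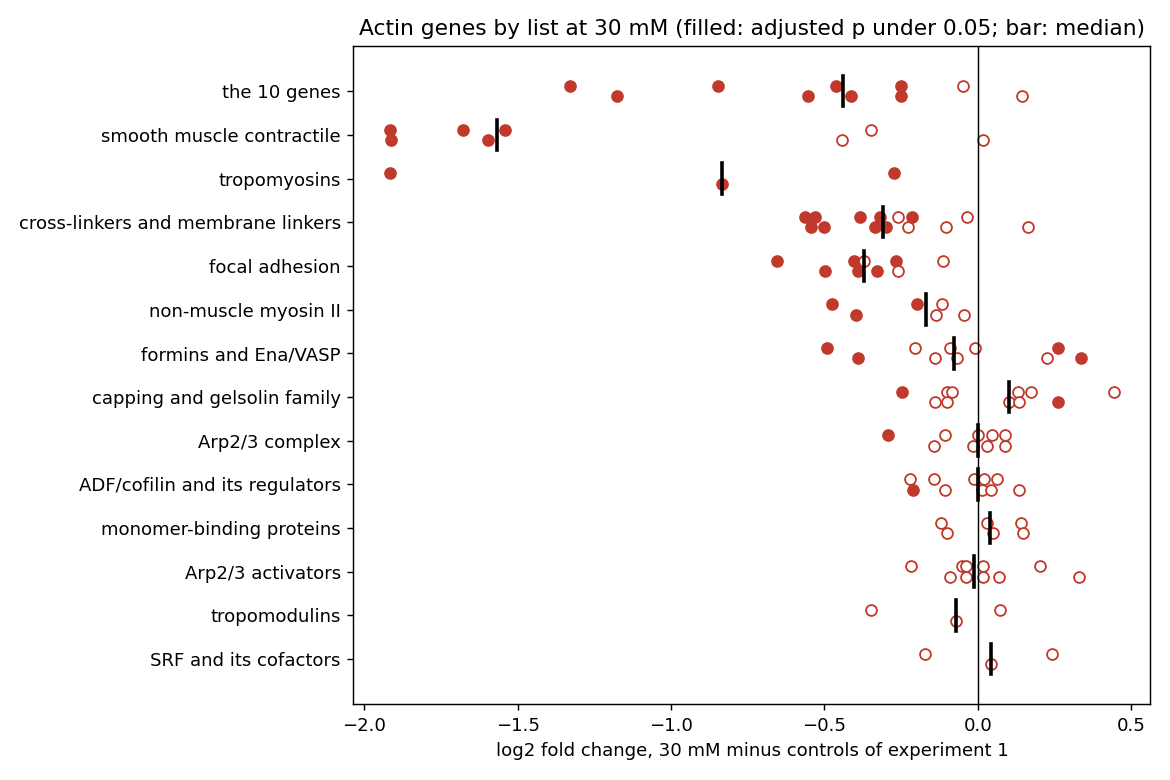
Log2 fold change at 30 mM (horizontal axis) of the tested genes in each list of actin genes shown, with the 10 genes in the top row and left out of the others. Actins and transgelins and calponins have no row of their own, so Actc1 and Tagln3 are not plotted. Filled points passed an adjusted p of 0.05 and bars give medians, which are -0.44 for the 10 genes and -0.31 for cross-linkers.

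At 10 mM 0 of 104 tested genes of these lists passed in edgeR, DESeq2 or limma voom, with 15 at an unadjusted p under 0.05 in edgeR. The share of all genes under that unadjusted cut is not given here, so the 15 cannot be set against it. Without replicate 6 at 10 mM, 2 passed as lower, Tpm1 (log2 fold change -0.28, edgeR adjusted p = 0.0145) and Plec, encoding the linker plectin (-0.33, edgeR adjusted p = 0.0412). In the comparison of the changes at the 2 doses 13 of 104 had a more negative change at 30 mM and 1 a more positive one, beside 2.40% and 0.880% of all genes. Among them were Fscn1 (difference of log2 fold changes -0.58) and Actn1 (-0.48) of the cross-linkers, Zyx (-0.57) and Tln1 (-0.48) of the focal adhesions, Tpm1 (-0.63), Myl6 (-0.29) and Myl12a (-0.34), and Add3 (0.36) in the other direction. Of 24 fits that each left out a well, Add3 lost its call in 13, Myl12a in 11 and Myl6 in 8. With upper quartile scaling, and without replicate 3 at 30 mM, 0 of 6 myosin II genes passed in place of 3.

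Several muscle relatives of these genes had larger fold changes. Of the 8 tested genes in a list of smooth muscle contractile genes 5 fell at 30 mM and 0 rose: Tpm2 (-1.92), Cnn1 (-1.91), Tagln (-1.68), Acta2 (-1.60) and Myl9 (-1.54). Within the calponins the log2 fold change was thus -1.91 for the muscle form Cnn1, -1.18 for Cnn2 and -0.05 for Cnn3. Within the transgelins it was -1.68 for the muscle form Tagln, -0.85 for Tagln2 and 0.07 for the neuronal form Tagln3. The actins did not follow 1 order, with -1.60 for the smooth muscle form Acta2, -0.25 for Actb, 0.15 for Actg1 and 0.39 for the cardiac form Actc1, of which the last 2 did not pass. At 10 mM 0 of 7 tested smooth muscle genes passed. In edgeR 3 had an unadjusted p under 0.05, again with no share of all genes given. Cnn1 had the lowest adjusted p of the smooth muscle genes tested (edgeR adjusted p = 0.065, log2 fold change -0.76, wells apart). Without replicate 6 at 10 mM 1 of them passed, Myl9 (log2 fold change -0.46, edgeR adjusted p = 0.00394).

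Markers of other cell types also changed at 30 mM, and in the smooth muscle, astrocyte and fibroblast and mural lists fewer passed at 10 mM. There 0 of 7 tested smooth muscle genes and 0 of 7 tested astrocyte markers passed. Of all genes tested 3.02% rose and 6.65% fell at 30 mM, and 0.391% rose and 0.266% fell at 10 mM. The smooth muscle genes summed to 837 to 1070 CPM in the controls of experiment 1 and to 258 to 429 CPM at 30 mM, and to 188 to 230 CPM and 145 to 215 CPM in the controls and at 10 mM in experiment 2. The 10 fibroblast and mural markers summed to 441 to 672 CPM and 290 to 360 CPM in experiment 1, where 4 of 9 tested fell, and to 581 to 784 CPM and 601 to 675 CPM in experiment 2, where 2 of 9 fell at 10 mM (Dcn and Col3a1, whose calls were lost in 3 and 6 of 12 fits that each left out a well). Astrocyte markers went the other way at 30 mM, with sums of 5060 to 6487 CPM against 3627 to 4590 CPM in the controls and 5 of 7 tested higher. Of the 11 oligodendrocyte markers 7 rose and 1 fell at 30 mM, and 3 rose and 0 fell at 10 mM, where 0 of the 9 genes tested passed. The marker that fell was Olig1, a call lost in 4 of 12 fits that each left out a well. No marker of these 4 lists was at 0 in all wells of a group. Endothelial markers summed to 38.8 to 70.6 CPM over all wells, and their defining gene Cldn5 was at 0 in all wells of 3 groups. Microglia markers summed to 193 to 337 CPM in the controls of experiment 1 and to 192 to 319 CPM at 30 mM. Of the 6 tested there, 1 rose and 0 fell. In experiment 2 they summed to 2420 to 2930 CPM in the controls and 2575 to 3112 CPM at 10 mM. There 1 of 9 tested rose (Cx3cr1), a call lost in 7 of 12 fits that each left out a well, and 0 fell. Neuron markers had 4 tested at each dose. At 30 mM 0 of them passed, and at 10 mM 1 rose (Tubb3), a call lost in 5 of 12 such fits. The part of these cell types in the falls of the 8 genes was not tested.

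For each gene, the log2 CPM of every well was also taken relative to the mean of the controls of its experiment, and genes were ranked by root mean square distance over 24 wells to the mean of the 10 genes. The nearest outside the 10 were Maged1 (0.0911), Myl12a (0.0921), Actn1 (0.0973), Hdgf (0.0973) and Cald1 (0.0985), which encodes caldesmon, a filament-binding protein. Their log2 fold changes at 30 mM lay between -0.41 for Hdgf and -0.50 for Actn1. Of the 10 genes themselves Tpm4 (0.0932) and Pfn1 (0.105) lay nearest to their common mean, and Capg (0.446) and Actg1 (0.425) farthest from it. Actg1 had only 3 to 16 counts per well, so counting error enters its distance. These distances describe likeness over these wells, which share their groups and scaling.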

How the data were processed

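RNA of 24 wells was measured by 3′ tag sequencing, with single-end reads of 100 bases. The authors deposited raw read counts per gene, whole numbers with no normalization, for 55359 Ensembl mouse genes, of which 52083 (94.1%) matched a symbol. The submitters' processing notes name cutadapt 1.18, STAR and the build GRCm39. The counter, annotation, use of strand and removal of duplicates are not given in the sources used here, so counts of overlapping genes and of near-identical copies are uncertain. Total counts ran from 1184609 to 1817028 per well, and floors cover counting error only. No pair of wells of a group agreed within sampling noise (60 pairs, with a chi-square of 1.07 to 2.88 per degree of freedom). The promoters are RefSeq's, on GRCm38.p6.

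Counts were tested by the quasi-likelihood method of edgeR 4.0.16 in R 4.3.3, with TMM factors, the filterByExpr filter at a minimum count of 10 and Benjamini-Hochberg adjustment over all genes tested, past the threshold at an adjusted p under 0.05. Separate fits covered 30 mM and 10 mM, each with the controls of its experiment, and the control groups. An interaction over all 24 wells gave the difference between doses. The scripts were tested on simulated data. CPM are counts over the library size times the TMM factor. Distances used a prior count of 2. The biological coefficient of variation was 8.08% in experiment 1 and 5.62% in experiment 2.

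The 10 genes, the lists and the tests were chosen with earlier results of these data known. Named beside the 10 genes were, in each list, up to 3 genes with the smallest p at 30 mM among those past the threshold, all genes past it at 10 mM, up to 2 chosen likewise for the difference between doses, the 5 genes nearest in pattern, and smooth muscle genes as relatives. A list of actin genes that is part of the pooled counts is not reported here by itself. The relatives set beside the genes were named after their values were seen. Alternatives were other scalings, no filter on low counts, DESeq2 1.42.0, limma voom (limma 3.58.1), the replicate number as a block, 1 fit over all wells and leaving out each well.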

Additional observations from a re-analysis of the deposited data

Results flagged for a closer look

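Among the 10 genes, 6 had a change at 30 mM that differed from that at 10 mM in a test of the difference itself (edgeR's interaction over 24 wells). Of all 14655 genes tested 3.28% passed, and 2.40% had a more negative change at 30 mM. The list was drawn up with differences between doses known, so the count is a description and no independent evidence. The differences of log2 fold changes were -1.14 for Capg, -1.01 for Cnn2, -0.83 for Tagln2, -0.61 for Tmsb10, -0.44 for Tpm4 and -0.40 for Pfn1. Each dose had its own experiment and batch, and dose and experiment cannot be told apart.

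Single wells stood far from the rest of their group in 2 of 40 sets of 6 wells, where chance gives about 2. Tagln2 had 231.8 CPM in control replicate 2 of experiment 2, the highest of its group, and Cnn3 had 452.7 CPM in replicate 6 at 10 mM, again the highest. Without control replicate 2 the estimate for Tagln2 at 10 mM was 0.0188 on the log2 scale in place of -0.0277, and neither passed the threshold.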

How the results depend on the processing

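At 30 mM the count of 8 of the 10 genes was the same under all 20 alternatives, and so were direction and side of the threshold for each gene. At 10 mM 0 genes passed under all 20. The difference between doses called 6 or 7 of the 10, the seventh being Actb, and the comparison of control groups 6 or 7, the seventh being Actg1 with no filter or in the joint fit. Estimates near 0 changed sign. At 10 mM that of Cnn3 was 0.0091 with no filter and ranged from -0.0574 to 0.0180 when 1 well was left out (0.0061 without replicate 4 at 10 mM, 0.0180 without control replicate 6). Over the same fits Cfl1 ranged from -0.0835 to 0.0049 (without replicate 6 at 10 mM) and Tagln2 from -0.0485 to 0.0188 (without control replicate 2). With upper quartile scaling the difference between doses was 0.0286 for Cnn3 and that between controls -0.0192 for Pfn1, which was -0.0130 with total-count scaling. Over all genes, the 89 calls at 10 mM became 21 in the joint fit and ranged from 37 to 95 when 1 well was left out. They were 40 and 45 without replicates 2 and 4 at 10 mM, and 57, 37 and 46 without control replicates 4, 5 and 6. The 481 calls for the difference ranged from 329 to 759, with 759 and 723 without replicates 1 and 2 at 30 mM. The causes were not tested. With a replicate block 1208 genes passed at 30 mM (8 of the 10), 68 at 10 mM (0 of the 9 tested), 461 in the difference between doses (6) and 5860 between controls (6). Whether the replicate numbers pair the wells is not known. Deviations of same-numbered wells correlated from -0.169 to 0.234 at 30 mM and from -0.038 to 0.037 at 10 mM, which cannot settle it. Of 6 wells 1 correlated best with its own number at 30 mM and 0 at 10 mM. Depth limits Actg1, at 3 to 16 counts per well.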
